A study of Mus musculus with 9 samples.

Results

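Myosin, tubulin, tropomyosin and actin-regulator genes were examined in retinal endothelial cells from pups treated with an antibody against the pericyte receptor PDGFRb. Members were chosen by symbol alone: a probe set counted if the platform annotation gave it exactly 1 symbol that starts with Myo, Myh or Myl and a digit, or with Tuba, Tubb, Tpm, Arpc, Actn, Capz or Tmsb. The smooth muscle gene Myh11 was left out with its 3 probe sets, and 13 further probe sets were left out because they carried several symbols. This gave 135 probe sets of 73 genes, out of 36701 probe sets in all, 29131 of which had 1 symbol. Of the members, 95 probe sets of 51 genes were assigned to non-muscle isoforms, 24 of 15 genes to striated muscle isoforms, and 14 of 6 genes (Myl6, Myl6b, Myl9, Tpm1, Tpm2, Tpm3) to isoforms shared by muscle and other cells. The other 2 probe sets belong to Tpmt, a drug-metabolising methyltransferase that only matches the letters.

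All 9 arrays are of the same condition. Per the labels, GFP-positive cells were sorted at postnatal day 8 from pooled, papain-dissociated retinas of mice homozygous for a Tie2-GFP transgene, in which the Tie2 promoter drives GFP in endothelial cells. As background, Tie2 is also active in some blood-lineage cells. The pups had received intraperitoneal APB5, a neutralizing antibody against PDGFRb, from day 0 to day 7. RNA was amplified, biotin-labelled and hybridised in triplicate to the 3 Affymetrix MG-U74v2 designs, A, B and C, each of which carries its own probe sets. No untreated cells were analysed here, so no value below is a response to the antibody. The labels do not say whether replicates came from separate pools, so the errors and p-values reflect array-to-array spread only, possibly a technical one.

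Actin filaments are nucleated as branches by the Arp2/3 complex, capped at their growing ends by capping protein, cross-linked by alpha-actinins and coated by tropomyosins, while beta-thymosins hold monomers in reserve. Conventional myosins, built from heavy and light chains, pull on these filaments, and unconventional myosins carry cargo along them or tether membranes to them. Microtubules are polymers of alpha and beta tubulin. Endothelial cells use both systems to spread, migrate, form lumens and hold their junctions, whereas striated muscle has its own heavy chains, light chains and actinins arranged in sarcomeres.

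Intensities are on a linear scale, and the position of a value is the percentage of the other probe sets on the same array that lie below it. A probe set was taken as above the floor if it exceeded the 40th percentile on all 3 arrays of its design. It was called high if limma placed it more than 1 log2 unit above the array median, and low if more than 1 log2 unit below, at an adjusted p under 0.05 over all probe sets of the design. Array medians were 43.6 to 44.3 on design A, 42.9 to 44.5 on B and 32.3 to 32.9 on C. Replicate arrays of a design correlated at r = 0.981 to 0.987 across probe sets. Of 10 endothelial marker genes, 10 had a probe set above the floor and 9 were called high, against 7 and 0 of 11 mural and smooth muscle markers, 5 and 2 of 10 neuronal markers, 3 and 2 of 8 macrophage markers and 3 and 0 of 5 platelet markers. Of all genes, 72.4% had a probe set above the floor and 36.0% had one called high. No measured marker was at 0. In sorted bulk RNA, fewer cells of a type and less RNA per cell cannot be told apart. Probes differ in hybridisation efficiency, so a position is a description of a probe set and gives no order of transcript levels between genes.

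Non-muscle members lay higher on the arrays than striated muscle members, most clearly on design A. The non-muscle median was the 59.6th percentile (SD 2.2 over the 3 replicate numbers), and the muscle median was the 29.9th (SD 2.3). Each number pools 1 array of every design, and these arrays are not known to share RNA. The SD is therefore a description and measures no spread between samples. In replicates 1, 2 and 3 the non-muscle medians were 62.1, 58.0 and 59.0, against muscle medians of 30.5, 31.9 and 27.5. Above the floor were 63 of 95 non-muscle probe sets (66.3%) and 7 of 24 muscle probe sets (29.2%), beside 56.5% of all probe sets. Called high were 41 non-muscle probe sets (43.2%) and 1 muscle probe set (4.17%), beside 22.4% of all. The muscle call, of Myl4, was lost without replicate 1 (adjusted p = 0.143) or replicate 2 (adjusted p = 0.0863). Called low were 7 non-muscle probe sets (7.37%) and 7 muscle probe sets (29.2%), beside 18.4% of all. By gene, 42 of 51 non-muscle and 5 of 15 muscle genes had a probe set above the floor (72.4% of all genes), and 33 non-muscle genes and 1 muscle gene had a probe set called high (36.0% of all genes). Genes with more probe sets have more chances of a high one.

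The non-muscle median exceeded the muscle median on all 9 arrays. On design A, which holds 55 of the non-muscle and 19 of the muscle probe sets, the difference was 51.2, 45.8 and 53.4 percentile points in replicates 1, 2 and 3. It was 15.4, 22.0 and 19.7 points on design B, where only 3 muscle probe sets lie, and 13.1, 11.4 and 26.7 points on design C, where only 2 lie. The non-muscle medians themselves were 77.3, 76.1 and 77.4 on design A, 57.4, 57.8 and 59.0 on B, and 44.5, 40.6 and 51.2 on C, so on design C they lay below the middle of the array in replicates 1 and 2. On design A, 38 of 55 non-muscle probe sets (69.1%) and 6 of 19 muscle probe sets were above the floor, beside 56.6% of all, and 29 (52.7%) and 1 were called high, beside 24.3% of all. On design B, 14 of 19 non-muscle probe sets (73.7%) and 1 of 3 muscle probe sets were above the floor, beside 56.4%, and 7 (36.8%) and 0 were called high, beside 22.1%. On design C, 11 of 21 non-muscle probe sets (52.4%) and 0 of 2 muscle probe sets were above the floor, beside 56.4%, and 5 (23.8%) and 0 were called high, beside 20.9%, so there the non-muscle shares were close to those of all probe sets. The classes overlapped: non-muscle probe sets spanned the 0.698th to the 99.9th percentile and muscle probe sets the 2.92nd to the 75.4th. Of the 95 non-muscle probe sets, 41 lay above the highest muscle probe set and 3 lay below the lowest. By the definition of a position, about 75.4% of all probe sets lie below the highest muscle position and about 2.92% below the lowest. The 3 non-muscle probe sets below the lowest are thus close to the share of all. Over all 135 members, which mix the classes, 77 were above the floor (57.0%), close to the background.

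Among the non-muscle members, 14 genes are known mainly from particular cell types, such as Tubb3 in neurons or Tubb1 in platelets. Of their 16 probe sets, 9 were above the floor and 3 were called high (Myo1h, Tubb3 and Tubb4a), with a median at the 46.8th percentile. These shares, 56.2% and 18.8%, were close to the 56.5% and 22.4% of all probe sets. The other 79 non-muscle probe sets had a median at the 66.9th percentile, with 54 above the floor (68.4%) and 38 called high (48.1%). Shared members lay between non-muscle and muscle members, with 7 of 14 probe sets above the floor, 2 called high and a median at the 48.2nd percentile.

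Promoter sequence, which the selection did not use, was described for the same classes without a test. Windows from 250 bases before to 50 after the start were taken from RefSeq (GRCm38.p6) for 65 of the 73 genes, 79 windows in all. Both strands were searched for 4 elements: TATAAA, the core of the TATA box; GGGCGG, the GC box bound by Sp1; the CArG box bound by serum response factor; and the MEF2 site, named for a factor of muscle genes. TATAAA was found in 5 of 54 non-muscle windows (9.26%) and 8 of 16 muscle windows (50%), beside 13.6% of all 32851 promoters. GGGCGG was found in 37 non-muscle windows (68.5%) and 1 muscle window (6.25%), beside 35.7% of all promoters. The 8 shared windows held GGGCGG in 6 (75%) and TATAAA in 0. Myh1, Myh2, Myh3, Myh4 and Myh8 are related genes on chromosome 11, so their windows are not independent. The CArG box was found in 2 non-muscle, 3 muscle and 2 of 8 shared windows (1.63% of all), and the MEF2 site in 0 non-muscle, 3 muscle and 0 shared windows (3.19% of all). In Myh1 and Myh4, 1 TATAAA match each lies inside the MEF2 match, and in Myh8 the only TATAAA match does. A match is a description of these letters and no evidence of binding. The windows below, with every match in capitals, are picked examples that carry these elements and do not represent their classes. Arpc2 (chr1:74236267-74236566) and Tpm4 (chr8:72135038-72135337) are non-muscle genes called high. Myh1 (chr11:67199852-67200151) and Myh4 (chr11:67237562-67237861) are fast muscle heavy chains with a probe set called low. Myl9 (chr2:156775214-156775513) is a shared light chain with a CArG box beside GC boxes. All windows shown lie on the plus strand of GRCm38.p6.
Arpc2: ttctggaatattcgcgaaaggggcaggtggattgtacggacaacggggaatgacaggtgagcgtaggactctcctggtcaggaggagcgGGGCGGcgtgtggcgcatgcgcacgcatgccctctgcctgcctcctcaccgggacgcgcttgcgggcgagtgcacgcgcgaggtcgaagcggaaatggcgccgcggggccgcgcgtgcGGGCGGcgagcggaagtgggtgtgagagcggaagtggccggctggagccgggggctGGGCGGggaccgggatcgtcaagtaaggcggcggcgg
Tpm4: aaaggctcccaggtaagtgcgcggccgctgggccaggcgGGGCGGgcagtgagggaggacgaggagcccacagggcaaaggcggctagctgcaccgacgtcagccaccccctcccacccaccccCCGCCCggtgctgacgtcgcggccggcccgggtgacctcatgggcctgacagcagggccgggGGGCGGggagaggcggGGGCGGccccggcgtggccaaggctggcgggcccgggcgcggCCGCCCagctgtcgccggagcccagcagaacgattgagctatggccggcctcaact
Myh1: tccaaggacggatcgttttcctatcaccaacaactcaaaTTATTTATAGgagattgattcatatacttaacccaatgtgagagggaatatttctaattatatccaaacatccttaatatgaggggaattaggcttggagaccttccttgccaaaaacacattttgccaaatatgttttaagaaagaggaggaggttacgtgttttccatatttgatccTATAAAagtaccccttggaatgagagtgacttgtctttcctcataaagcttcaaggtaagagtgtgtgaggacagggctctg
Myh4: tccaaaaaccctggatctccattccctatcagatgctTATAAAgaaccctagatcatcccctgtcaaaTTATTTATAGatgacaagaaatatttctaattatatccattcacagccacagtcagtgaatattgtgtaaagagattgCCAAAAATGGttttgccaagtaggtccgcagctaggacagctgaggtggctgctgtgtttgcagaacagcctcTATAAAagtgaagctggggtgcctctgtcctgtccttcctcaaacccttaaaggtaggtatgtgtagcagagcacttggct
Myl9: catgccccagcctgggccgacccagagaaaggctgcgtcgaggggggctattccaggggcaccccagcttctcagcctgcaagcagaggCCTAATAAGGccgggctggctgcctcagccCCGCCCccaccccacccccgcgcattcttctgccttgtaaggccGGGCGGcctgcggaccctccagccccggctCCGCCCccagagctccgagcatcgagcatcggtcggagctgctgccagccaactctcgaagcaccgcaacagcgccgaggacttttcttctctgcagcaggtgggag
The non-muscle pair carries 3 and 5 GC boxes and no TATAAA. The Myh1 and Myh4 windows carry 2 and 3 TATAAA matches, 1 MEF2 site each and no GC box, and Myh4 also holds 1 CArG box. Windows without any of these elements occurred in both classes. Among them were those of the muscle genes Myl4, Myh7 and Myh7b. The same held for Myh10, Tuba1c and Arpc1a, non-muscle genes called high.

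The non-muscle heavy chains Myh10 (non-muscle myosin IIB) and Myh9 (IIA), the motors of stress fibres and the cell cortex, were called high. The Myh10 probe set on design B had intensities of 595, 759 and 823 on the 3 arrays, 4.04 ± 0.10 log2 units above the median (SE, n = 3; adjusted p = 5.8e-07), while its probe set on design A read 20.3, 26.0 and 22.8, below the floor. Myh9 read 506, 609 and 452 (3.56 ± 0.10; adjusted p = 8.9e-07) and 182, 195 and 157 on design A, and 40.5, 41.5 and 38.4 on design B. The first Myh10 and Myh9 probe sets lay far above the array medians on every array, but the same genes also had a probe set near or under the median. Myh14 (IIC), more abundant in epithelia, stayed near the median with 50.0, 47.4 and 48.4 on design A and 33.2, 35.9 and 34.0 on design C.

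Of the 12 probe sets of the 8 striated muscle heavy chains, 4 were above the floor, 0 were called high and 6 were called low, with a median at the 18.6th percentile. Among all probe sets, 56.5% were above the floor, 22.4% were called high and 18.4% were called low. The 7 probe sets of the non-muscle heavy chains had a median at the 53.9th percentile, with 6 above the floor and 3 called high. Myh4, the fast IIb chain, read 71.7, 64.0 and 77.2 with a probe set whose name carries a mark of shared or reduced sequence, and 8.26, 8.55 and 11.0 with its other probe set, which was called low. Myh7, the slow and cardiac beta chain, read 64.3, 65.3 and 69.3 and 43.4, 53.3 and 55.8, both with probe sets so marked. These were the strongest values of the group, and all were less than 1 log2 unit above the median. Myh7b, a slow-type relative, read 35.5, 35.4 and 41.1, just above the floor. Myh3, the embryonic chain, read 13.8, 11.1 and 14.1 and was called low (adjusted p = 0.00024), as were both probe sets of the perinatal chain Myh8, the probe set of the cardiac alpha chain Myh6 (adjusted p = 0.032) and the design A probe set of Myh1 (adjusted p = 5.6e-05). The low call of Myh6 was lost without replicate 2 (adjusted p = 0.0979) and without replicate 3 (adjusted p = 0.132). Myh2, the fast IIa chain, was below the floor with 29.6, 29.0 and 29.0.

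The light chains repeated the split between classes, with medians at the 93.2nd percentile for 4 non-muscle probe sets and the 37.9th for 9 muscle probe sets. Myl12a and Myl12b, the regulatory light chains of non-muscle myosin, were called high with all 3 of their probe sets. Myl12a read 812, 859 and 807 (4.66 ± 0.07 log2 units over the median; adjusted p = 2.4e-06) and 132, 153 and 150, both on design C. The name of the first Myl12a probe set marks shared or reduced sequence, and that of the second does not. Myl12b read 526, 543 and 517 on design A (3.59 ± 0.07; adjusted p = 2.4e-07). The replicates of these probe sets lay close together, and their mean positions were all above the 90th percentile. Myl9, the regulatory light chain best known from smooth muscle, read 111, 96.7 and 108 (1.25 ± 0.08; adjusted p = 0.020) and was called high near the threshold. That call was lost without replicate 1 (adjusted p = 0.126) and without replicate 3 (adjusted p = 0.0752). Myl6, the essential light chain of smooth and non-muscle myosin, was above the floor but not called high, with 56.3, 52.4 and 53.9 on design A and 66.4, 74.2 and 65.7 on design B. Its relative Myl6b and the non-muscle member Myl10 had no probe set above the floor on all arrays.

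Myl4, the atrial and embryonic essential light chain, was the muscle member called high. It read 104, 105 and 97.7 (1.21 ± 0.07; adjusted p = 0.029), and its other probe set read 68.7, 60.2 and 58.2, above the floor but not called high. Both lay above the median on every array, and the call of the first depended on replicates 1 and 2, as given above. Myl1, a fast skeletal essential light chain, read 51.6, 71.2 and 51.9 on design A and 10.8, 8.31 and 9.05 on design B, where it was called low. Myl2, the ventricular regulatory light chain, was below the floor with 21.2, 17.2 and 21.1, and neither Myl3 nor Myl7, chains of the heart, had a probe set above the floor. Other genes of striated muscle, such as troponins, titin and creatine kinase, were measured beside these values: 17 of 28 had a probe set above the floor and 2 (Ckm and Myog) were called high, beside 72.4% and 36.0% of all genes. Their 51 probe sets had a median at the 41.0th percentile, with 24 above the floor (47.1%) and 3 called high (5.88%), beside 56.5% and 22.4% of all. Summed over the 32 probe sets on design A, the list came to between 1373 and 1383 on the 3 arrays. Its part in the muscle members' values was not tested.

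Of the 18 unconventional myosins, 9 had a probe set called high, and 11 of 35 probe sets were called high (31.4%), with a median at the 56.8th percentile, beside 36.0% of all genes and 22.4% of all probe sets. Above the floor were 22 of the 35 (62.9%), close to the 56.5% of all probe sets. Myo10, a motor of filopodial tips, read 1210.1, 1007 and 1039 on design B (4.63 ± 0.08; adjusted p = 3.2e-07), 107, 92.1 and 62.1 on design A, and 14.4, 20.7 and 16.6 on design C. The design B values were far above the median on every array, and those on design C were below the floor. Myo6, which moves towards the minus end of actin and acts in endocytosis, read 524, 525 and 511 with its strongest probe set (3.56 ± 0.07; adjusted p = 2.4e-07). The name of that probe set marks shared or reduced sequence, and the other Myo6 probe sets are unmarked. A further pair of Myo6 probe sets was called high as well, with 204, 177 and 166 on design A and 185, 162 and 142 on design B. The fourth, with 10.5, 12.6 and 11.2, was called low. Myo1h, a short-tailed class I myosin, read 169, 135 and 144 on design C with a probe set marked in the same way (2.19 ± 0.09; adjusted p = 8.6e-05).

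The other unconventional myosins called high were Myo15b, Myo18a, the membrane-binding Myo1c and Myo1e, and Myo9a and Myo9b. Their high probe sets lay between the 77.5th and the 85.7th percentile, and those of Myo1e and Myo9a have names marked for shared or reduced sequence. Not called high were Myo1f and Myo1g, class I myosins of blood cells, Myo1d, Myo3b, Myo7a and Myo7b, and the vesicle motors Myo5a, Myo5b and Myo5c. Myo1f had the strongest of these, with 97.2, 81.3 and 77.2, and Myo3b, known from photoreceptors and hair cells, was below the floor with 28.9, 29.5 and 26.0.

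Tropomyosins were represented by 10 probe sets of 4 genes, with the non-muscle gene at the 99.5th percentile and the 9 probe sets of shared genes at a median of 26.0. Tpm4, a tropomyosin of non-muscle filaments, read 1979, 2059 and 1802 (5.46 ± 0.08; adjusted p = 6.1e-08). Tpm1, whose splice forms serve muscle and non-muscle cells, read 1221, 1380 and 1070 with its strongest probe set (4.79 ± 0.09; adjusted p = 1.6e-07), and its other 4 probe sets had positions between the 10.4th and the 69.8th percentile. The lowest of these, on design C, was called low (adjusted p = 0.00063). Splice forms of Tpm1 were not resolved here. Tpm3, another gene with muscle and non-muscle forms, read 88.9, 107 and 107 and missed the call (1.19 ± 0.08; adjusted p = 0.068). Tpm2, known from muscle, was below the floor with 24.6, 20.9 and 21.5 and with 18.8, 17.2 and 17.0, and the second of these probe sets was called low.

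The non-muscle alpha-actinins were both called high. Actn1 read 1781, 1873 and 1646 (5.32 ± 0.08; adjusted p = 6.3e-08), only with a probe set whose name marks shared or reduced sequence. Its other probe sets lay at the 53.9th, 31.4th and 8.99th percentile. Those at the 31.4th and 8.99th are unmarked, and the latter was called low. Actn4 read 379, 401 and 401 (3.16 ± 0.07; adjusted p = 4.5e-07). None of the 3 muscle actinin probe sets was above the floor on all arrays. Actn2, of the cardiac and skeletal Z-disc, read 49.2, 31.7 and 44.6, above the floor on 2 arrays, and Actn3, of fast fibres, reached 30.0, 31.0 and 28.5 with its stronger probe set.

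All 5 measured Arp2/3 subunits had a probe set called high, beside 36.0% of all genes. Of their 10 probe sets, 5 were called high (50%), beside 22.4% of all, and the median was at the 65.8th percentile. Arpc2 read 1820.2, 1944 and 1604 (5.34 ± 0.08; adjusted p = 7.8e-08), and Arpc5l read 1152, 1213 and 1106 on design C (5.15 ± 0.07; adjusted p = 2.4e-06). The name of this Arpc5l probe set marks shared or reduced sequence, and the unmarked Arpc5l probe set lay at the 53.9th percentile. Arpc4 read 366, 439.7 and 345 (3.11 ± 0.09; adjusted p = 1.4e-06). Arpc1a followed at 141, 137 and 132, and Arpc5 at 113, 109 and 116 (1.36 ± 0.07; adjusted p = 0.0028). Every array placed these probe sets more than 1 log2 unit over the median, while Arpc2, Arpc4 and Arpc5l also had probe sets near or under it.

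Capping protein is a dimer of an alpha and a beta subunit. The beta subunit Capzb read 955, 969 and 957 (4.45 ± 0.07; adjusted p = 8.3e-08), and the ubiquitous alpha subunits Capza1 and Capza2 read 566, 560.0 and 422 (3.54 ± 0.11; adjusted p = 1.3e-06) and 330.1, 360.4 and 325 (2.94 ± 0.07; adjusted p = 8.4e-07). The testis alpha subunit Capza3 was called low with 6.14, 9.74 and 7.94 (-2.50 ± 0.13; adjusted p = 3.4e-05). Of the 5 Capzb probe sets, 2 were called high, both with names that mark shared or reduced sequence. The other 3 lay at or under the 42.1st percentile, among them the unmarked one, which was below the floor.

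Both beta-thymosins were called high. Tmsb4x, the main actin-sequestering peptide of many cells, read 3978, 4148 and 3574 (6.47 ± 0.08; adjusted p = 5.9e-08), above 99.9% of the probe sets of its array. Tmsb10 read 234, 153 and 181 (2.08 ± 0.12; adjusted p = 0.00017), with replicate 1 highest.

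Tubulin probe sets reached the top of the arrays, with a wide range within genes. Tuba1a read 4074, 4039 and 3496 (6.45 ± 0.08; adjusted p = 5.9e-08) and 2100.1, 2116 and 1635 on design A, and 71.8, 60.5 and 79.0 on design B. Tuba1c, a closely related alpha tubulin, read 1668, 1551 and 1288 (5.08 ± 0.10; adjusted p = 1.4e-07). Tuba3a, best known from testis, was above the floor with 32.0, 25.8 and 33.2 on design C but not called high. Tuba4a was below the floor with 19.6, 21.0 and 21.1 and was called low with its other probe set, which read 6.31, 6.11 and 6.07. Tuba8 was above the floor on 2 of 3 arrays.

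Of 8 beta tubulin genes, 5 had a probe set called high, beside 36.0% of all genes. Of their 15 probe sets, 7 were called high (46.7%), beside 22.4% of all. Tubb5, the common beta tubulin of dividing cells, read 914, 952 and 648 (4.23 ± 0.12; adjusted p = 8.3e-07) and 749.9, 677 and 496 on design A, while its 3 probe sets on design B lay at the 52.3rd, 21.4th and 0.739th percentile. The last of these was called low (adjusted p = 2.3e-06). Tubb6 read 453, 379.5 and 301 (3.08 ± 0.12; adjusted p = 5.7e-06), and Tubb2a read 233, 219.6 and 179 and 129, 103 and 121. Tubb4a and Tubb3, beta tubulins of neurons, were called high at 125, 143 and 154 (1.67 ± 0.08; adjusted p = 0.00026) and at 130, 110.3 and 106 (1.38 ± 0.09; adjusted p = 0.0059), and a second Tubb3 probe set was below the floor. The neuronal markers called high were Rbfox3 and Stmn2, and the summed neuronal list on design A came to between 290 and 361 over 10 probe sets; its part in the Tubb3 and Tubb4a values was not tested. Tubb1, the beta tubulin of platelets, was below the floor with 15.1, 15.0 and 20.1, and the pseudogene Tubb2a-ps2 was below it too. Of the 23 tubulin probe sets, 14 had names that mark shared or reduced sequence, and 9 of the 10 called high were among these, so which of these near-identical paralogs a value stands for is uncertain. Tubb4b, a widely expressed beta tubulin, read 64.1, 69.8 and 84.8 and was not called high.

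Of the 38 genes with several probe sets, in 17 some probe sets were above the floor and others were not, and 19 had both high and other probe sets, beside 57.1% and 44.3% of all genes with several probe sets. In Tubb2a and Myl12a every probe set was called high. The probe sets of a gene differed by a median of 34.2 percentile points, and by at least 50 points in 13 genes. Marked probe sets made up 42 of the members, with 19 called high, against 25 of the 93 unmarked ones. The shares among all marked and all unmarked probe sets were not computed, so whether this difference is particular to the members was not tested.

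The replicates of a probe set lay close together, for members no more so than for all probe sets above the floor. Of the 77 members above the floor, 0 spread over more than 1 log2 unit, against 1.10% of all probe sets above the floor (228 of 20726). With so low a share of all, 0 of 77 is close to the background. The median SD of these members was 0.14 log2 units, slightly above the 0.12 for all. The widest, Myo5a on design B, read 77.2, 44.2 and 54.8, a range of 0.80 log2 units. On design A, 26 of the 32 members called high had their lowest centred value in replicate 3 (81.2%), with a median deviation of -0.13 log2 units from the probe set's mean over the arrays, against 1727 of all 3015 probe sets called high there (57.3%; median deviation -0.083). For the 10 tubulin probe sets among them it was 8, with a median deviation of -0.23. On design B it was 5 of 7 members against 39.0% of all called high, and on design C 2 of 5 against 29.3%. Whether this was a feature of the array or of its RNA was not tested.

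Genes that act with the members were read from fixed lists. Of 44 measured genes of actin assembly and contraction, 39 had a probe set above the floor and 23 had a probe set called high, beside 72.4% and 36.0% of all genes. The 93 probe sets had a median at the 63.9th percentile, with 64 above the floor (68.8%) and 28 called high (30.1%), beside 56.5% and 22.4% of all. The strongest was Dstn, an actin-severing protein, which read 3348, 3796 and 3438, followed by Tmod3, a pointed-end cap, with 2628, 3001 and 2592. Tln1, which links integrins to actin, read 2719, 1207 and 2410.3 and varied more between arrays than the members did. Of 26 genes of microtubule regulation, 19 had a probe set above the floor and 9 had a probe set called high, close to the 72.4% and 36.0% of all genes. The 55 probe sets had a median at the 44.0th percentile, with 28 above the floor (50.9%) and 10 called high (18.2%), below the shares of all probe sets. They were led by the motor subunit Kif5b (1043, 811 and 883 on design B), Stmn1, a tubulin-binding protein (1265, 1228 and 1325), and the tubulin cofactor Tbcd (338, 367 and 295).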

How the data were processed

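The 9 arrays fall into 1 group, with 3 replicates on each of 3 designs. The values are linear intensities deposited by the authors, 1 table per design; the sources used here give no summary algorithm, scaling or software. The number of arrays limits the precision. Gene symbols came from the platform annotation, and all 73 symbols were found in RefSeq. The 7 values of 0 were set to the lowest value above 0 on the same array.

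Each design was fitted alone with limma 3.58.1 in R 4.3.3: log2 intensity minus the array median, 1 group, treat with a minimum of 1 log2 unit, Benjamini-Hochberg adjustment over all probe sets at 0.05. On simulated data, 50 of 50 probe sets at 1.5 log2 units were called on each design, 28 to 32 of 50 at 1.2, and 0 of those at most 0.8. Every simulated probe set had the median SD of its design, and a smaller share lay high than in the data. Neither noisier probe sets nor means between 0.8 and 1 log2 unit were simulated, so the rate of false calls in the data was not tested. Named by rule were, in each role, the 3 genes with the highest best probe set and the lowest gene, plus muscle members above the floor; other genes named were added after their values were seen. Classes were assigned by hand, that of Myo15b after the files were seen. The members and lists were chosen with earlier results of these data known. Class comparisons are descriptions without a test, since members are not replicates. Alternatives are given in the closing section.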

Additional observations from a re-analysis of the deposited data

How the results depend on the processing

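The non-muscle median stayed above the muscle median under every alternative run, and no result changed direction. Leaving out a replicate gave 63 to 66 non-muscle and 7 to 8 muscle probe sets above the floor and a class difference of 28.9 to 31.5 points. In these refits 41 non-muscle and 0 to 1 muscle probe sets were called high, beside 7835 to 7997 of all 36701. A floor at the 60th percentile left 46 of 95 non-muscle and 4 of 24 muscle probe sets. The shares of all probe sets above the floor in these settings were not computed. With unmarked probe sets alone, 39 of 61 non-muscle and 4 of 17 muscle probe sets were above the floor. Of these unmarked sets, 22 non-muscle and 1 muscle were called high, and the medians were 53.9 and 21.0. Fewer probe sets enter here, and the shares of all unmarked probe sets were not computed. The strongest probe set of each gene gave medians of 81.7 and 34.4 and a difference of 47.3. Choosing the strongest raises the position of any gene with several probe sets, and the same median over all genes was not computed. Adding 50 to each intensity left 28 non-muscle and 0 muscle calls, 29 of the 44 high members in all and 4497 of all probe sets, since it compresses dim values. Without a minimum change, 51 of 95 non-muscle and 5 of 24 muscle probe sets were called, beside 16183 of all 36701. With shared members counted as muscle, 14 muscle probe sets were above the floor, 3 were called high, and the muscle median was 34.0, a difference of 25.6. Leaving out restricted non-muscle members gave a median of 66.9 and a difference of 37.0. Design A alone gave 77.5 and 26.2, a difference of 51.3. Centring on the 75th percentile, quantile normalization and the filter on dim probe sets each kept all 44 calls. That centring leaves every mean log2 value over the median unchanged by construction, so only the spread could differ. The filter removed only probe sets that exceeded the floor on no array, so no high member could be dropped by it. These settings are therefore weak checks of the calls. No paired analysis was possible because all arrays are of 1 condition and arrays of the same number on different designs carry different probe sets. Depth has no counterpart in these files: no detection calls were used here, so how far a value near the median stands over background was not tested.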
